A study of Rattus norvegicus with 6 samples.

Results

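Light detection in the retina starts with opsins, receptors that carry a retinal chromophore, and ends when the lit receptor is shut off. In rods and cones a receptor kinase phosphorylates the lit opsin, an arrestin then binds it and blocks further coupling to transducin, and the chromophore is renewed. Other opsins act outside the rods and cones, in ganglion cells that sense ambient light and in the cells that process retinal. The genes described here are 8 of these: the cone opsins Opn1sw and Opn1mw, the non-visual opsins Opn3, Opn4 and Rgr, the photoreceptor opsin kinase Grk1, the rod arrestin Sag and the cone arrestin Arr3. They were chosen by symbol, ignoring case, and each matched 1 of the 26406 rows of the gene table.

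The series holds neural retina RNA of 6 rat samples at postnatal day 60, in 3 groups of 2. Royal College of Surgeons (RCS) rats received human neural progenitor cells (hNPCs) under the retina at postnatal day 21, other RCS rats had sham surgery with the carrier medium, and Long Evans rats, the wild type, had the same sham surgery. RCS rats lose photoreceptors because they lack a working Mertk, the receptor with which the pigment epithelium takes up shed outer segments, so both RCS groups carry this defect. RNA came from the region with grafted cells, or its counterpart in a sham eye, and no label tells separate animals from samples that share one. The table holds a single FPKM per gene (fragments scaled by transcript length and by sequencing depth) with a lower and an upper bound, and no column names a sample. No value is therefore tied to a strain or to the graft, no groups were compared, and there is no replicate error. What follows compares genes with each other in 1 library or 1 pool. In such bulk RNA, fewer cells of a type and less RNA per cell cannot be told apart.

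All 8 genes reached 1 FPKM, as did 52.6% of all rows. They were picked as retinal genes, so this count says little by itself. All 6 rod markers lay between 293 and 6641 FPKM, and 99.6% of all rows were below the lowest of them. All 6 cone markers lay between 1.18 and 58.4 FPKM, and the lowest was below the median of all rows, 1.39 FPKM. In all, the 8 genes summed to 2273 FPKM, or 0.664% of the table's summed FPKM, and Sag alone was 87.6% of that sum. The highest, Sag, was 1519 times the lowest, Opn3. In the order of their levels Sag was followed by Grk1, Arr3, Opn1mw, Rgr, Opn4, Opn1sw and Opn3. The deposited intervals of neighbours in that order were separate, except those of Opn1mw and Rgr, which overlapped.

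The promoters of the pairs that carry the main contrasts, the arrestins Sag and Arr3 and the cone opsins Opn1mw and Opn1sw, are shown here so that the genes compared can be seen beside their levels. Each line holds the 250 bases before the annotated start, from RefSeq, build GRCr8, read 5′ to 3′ on the gene's strand. Capitals mark a match to a motif on either strand. The motif TAATCC is the core bound by the photoreceptor factor CRX. The motif TGCTGA is part of the site of Maf-type factors such as NRL. The motif TATAAA is the common core promoter element. Sag lies at chr9:95916947-95917196 on the plus strand, Arr3 at chrX:69739709-69739958 on the plus strand, Opn1mw at chrX:157056105-157056354 on the plus strand and Opn1sw at chr4:58945826-58946075 on the minus strand.
Sag: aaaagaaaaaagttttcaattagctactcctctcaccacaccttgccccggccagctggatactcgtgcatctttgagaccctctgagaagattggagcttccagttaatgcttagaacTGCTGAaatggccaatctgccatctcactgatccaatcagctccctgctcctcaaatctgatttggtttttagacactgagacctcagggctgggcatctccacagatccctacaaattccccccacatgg
Arr3: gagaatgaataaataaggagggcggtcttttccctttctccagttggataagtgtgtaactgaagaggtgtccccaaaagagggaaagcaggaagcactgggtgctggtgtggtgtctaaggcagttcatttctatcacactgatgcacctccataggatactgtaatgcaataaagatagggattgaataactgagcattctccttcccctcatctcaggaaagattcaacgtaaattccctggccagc
Opn1mw: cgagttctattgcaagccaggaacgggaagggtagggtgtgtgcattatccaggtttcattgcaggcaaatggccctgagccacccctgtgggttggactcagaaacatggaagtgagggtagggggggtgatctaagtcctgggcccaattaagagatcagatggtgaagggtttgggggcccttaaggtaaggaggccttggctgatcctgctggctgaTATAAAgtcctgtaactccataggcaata
Opn1sw: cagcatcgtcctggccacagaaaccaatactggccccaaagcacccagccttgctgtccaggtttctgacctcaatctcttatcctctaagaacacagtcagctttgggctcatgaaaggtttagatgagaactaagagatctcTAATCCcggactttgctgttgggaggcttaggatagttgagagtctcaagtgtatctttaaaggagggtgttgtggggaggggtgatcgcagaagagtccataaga

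The Sag window held TGCTGA with its first base 131 bases before the start. The Opn1mw window held TATAAA, 29 bases before the start, and the Opn1sw window held TAATCC, 106 bases before it. The Arr3 window held none of the 3 motifs, which says only that these letters are not in it. Promoters were found for 7 of the 8 genes. TAATCC was in 3 of the 7 windows, those of Opn1sw, Opn4 (58 bases before the start) and Rgr (211 bases before it). TGCTGA was in 1 of the 7, that of Sag, and TATAAA in 1 of the 7, that of Opn1mw. Over all 33469 promoters of the same length TAATCC was in 6.34%, TGCTGA in 15.1% and TATAAA in 12.9%. The counts among the 7 windows were not tested against these shares. The motifs do not overlap one another in the printed windows, and a match is a stretch of letters, not a measured binding site.

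Of the cone opsins, the medium-wave opsin Opn1mw was the higher. Opn1mw, which makes the green-sensitive cone pigment, was at 28.4 FPKM with deposited bounds of 25.2 and 31.6. Opn1sw, which makes the short-wave cone pigment that in rats responds to ultraviolet light, was at 8.15 FPKM (6.79 to 9.50). Opn1mw was thus 3.49 times Opn1sw (95% counting interval 2.86 to 4.25), and held 77.7% of the FPKM of the cone opsin pair. The interval of this ratio, like those below, treats each deposited bound as 2 standard errors from the value and covers counting error alone. By that reading the Opn1mw row rests on 307 fragments and the Opn1sw row on 144.

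The Opn1mw row (ENSRNOG00000037261) spans positions 152310260 to 152330485 of chromosome 1 in the file's build, rn5. In the RefSeq table of build GRCr8 the gene lies on the X chromosome, as do 19 of its 20 nearest named rows in the file, the other having no RefSeq match. The whole block of rows around Opn1mw therefore sits on a different chromosome in the 2 assemblies. For the other 7 genes the chromosome was the same in the file and in RefSeq. The Opn1sw row (ENSRNOG00000006874) spans 56420996 to 56424141 of chromosome 4. Neither row overlaps another row of the table.

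The non-visual opsins spanned a wider range than the cone opsins. Rgr, an opsin of pigment epithelium and Müller glia that turns all-trans retinal into the 11-cis form in light, was at 24.0 FPKM (21.7 to 26.3). Opn4, or melanopsin, the pigment of intrinsically photosensitive ganglion cells, was at 11.5 FPKM (10.2 to 12.9). Opn3, also called encephalopsin, an opsin first described in brain, was at 1.31 FPKM (0.787 to 1.84), and its row rests on an implied 25 fragments. Its lower bound lies below 1 FPKM, and 49.5% of all rows had a lower value. Opn4 was 8.78 times Opn3 (5.83 to 13.2) and 0.479 times Rgr (0.413 to 0.556). The Rgr row (ENSRNOG00000012396) spans 14188717 to 14203346 and the Opn4 row (ENSRNOG00000011600) 9268371 to 9277528 of chromosome 16, and the Opn3 row (ENSRNOG00000003778) spans 98180839 to 98211263 of chromosome 13.

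**Figure D1:**
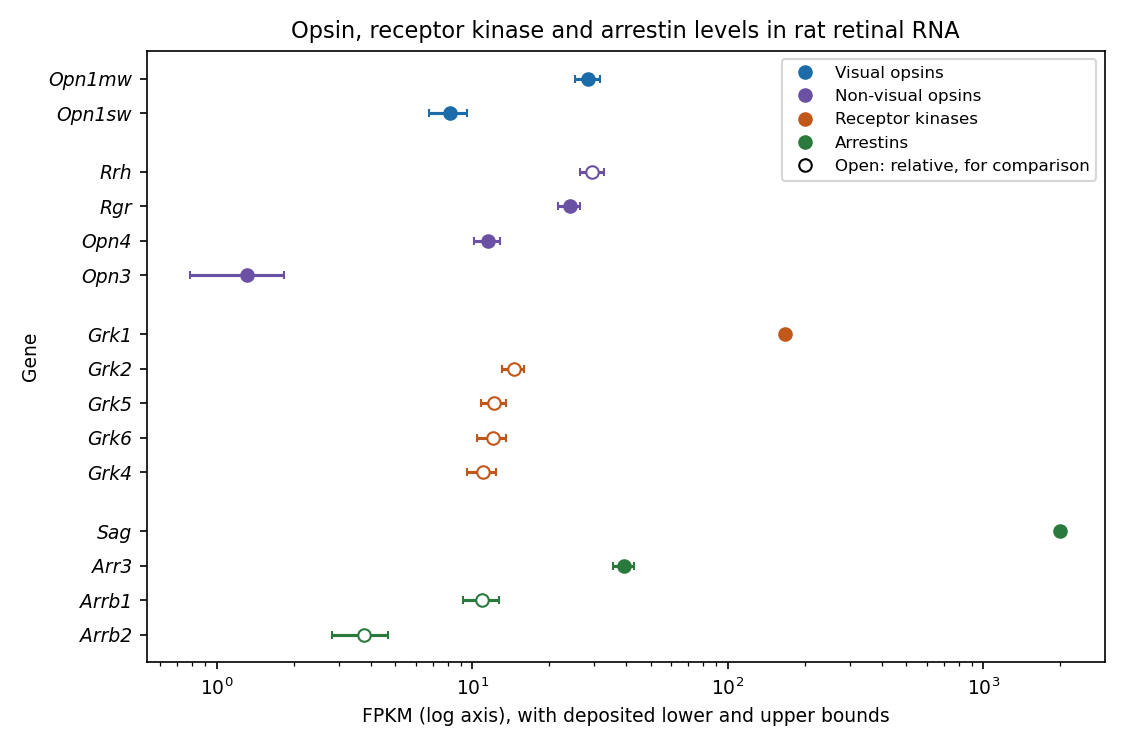
Level in FPKM (log axis) of each opsin, receptor kinase and arrestin looked up and found, with the deposited lower and upper bounds as bars. Filled points are the 8 genes and open points their relatives. The rod opsin was not looked up. Sag and Grk1 stand apart at 1992 and 168 FPKM, while the relatives lie between 3.75 and 29.5 FPKM; Opn5, listed at 0, is not drawn.

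Cone opsins and non-visual opsins did not separate by level. The rod opsin was not among the genes looked up, so nothing is said here of visual opsins as a whole. The cone opsins summed to 36.5 FPKM, and the 3 non-visual opsins Opn3, Opn4 and Rgr to 36.8 FPKM. This near match holds in FPKM only. It also depends on leaving out Rrh, a further non-visual opsin at 29.5 FPKM, which would lift the second sum well above the first. The implied fragments were 307 for Opn1mw and 144 for Opn1sw, against 430 for Rgr, 289 for Opn4 and 25 for Opn3. Opn1mw was 21.7 times Opn3 (14.4 to 32.6), 2.47 times Opn4 (2.10 to 2.90) and 1.18 times Rgr (1.02 to 1.37). The last ratio is the closest to 1 among the opsin pairs compared, which did not include Rrh. It turned to 0.714 when implied fragments, which are not divided by length, stood in for FPKM. In the same way Opn1mw over Opn1sw became 2.13, Opn1mw over Opn3 became 12.3 and Opn1mw over Opn4 became 1.06. Opn1sw was 6.21 times Opn3 (4.06 to 9.50). It was 0.708 times Opn4 (0.580 to 0.864), or 0.498 by implied fragments, and 0.339 times Rgr (0.281 to 0.410). The short-wave cone opsin was therefore below 2 of these 3 non-visual opsins, Opn4 and Rgr. Of the remaining non-visual opsins, Rrh, or peropsin, known from the microvilli of the pigment epithelium, was at 29.5 FPKM (26.3 to 32.8), and Opn5, or neuropsin, was listed at 0. Rrh thus had the highest value of the opsins looked up, above both cone opsins. Its bounds overlapped those of Opn1mw, at 28.4 FPKM (25.2 to 31.6).

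Grk1, the kinase that marks lit photoreceptor opsins for arrestin binding, stood far above its relatives. It was at 168 FPKM (163 to 173), an implied 3945 fragments, and ranked 227th of 26406 rows. In mice this kinase serves rods and cones alike. The Grk1 row (ENSRNOG00000018430) spans 80642048 to 80653999 of chromosome 16. The relatives, which act on other receptors, lay close together. Grk2 (listed as Adrbk1) was at 14.5 FPKM (13.1 to 16.0) and Grk5 at 12.2 FPKM (10.8 to 13.5). Grk6 was at 12.0 FPKM (10.4 to 13.6) and Grk4 at 11.0 FPKM (9.53 to 12.4). Grk1 was 11.6 times Grk2 (10.4 to 12.8) and 15.3 times Grk4 (13.4 to 17.5), the lowest and the highest of the 4 ratios. It held 77.2% of the FPKM of these 5 kinases. Grk3 and Grk7 matched no row by the symbols searched.

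Among the opsins, receptor kinases and arrestins looked up and listed above 0 FPKM, the arrestins showed the widest gap within a family. Sag, also called S-antigen, which binds phosphorylated rod opsin, was at 1992 FPKM (1969 to 2016), an implied 28123 fragments, and ranked 10th in the table. Arr3, the cone arrestin, was at 39.4 FPKM (35.7 to 43.0), an implied 456 fragments. Sag was 50.6 times Arr3 (46.1 to 55.5). In mice, cones also hold the rod arrestin, so this ratio compares 2 genes and is not a ratio of cell types. The Sag row (ENSRNOG00000018185) spans 94646553 to 94691388 of chromosome 9 and the Arr3 row (ENSRNOG00000002904) spans 71311676 to 71323656 of chromosome X.

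The beta-arrestins, which stop signalling by many receptors throughout the body, were lower than both. Arrb1 was at 11.0 FPKM (9.20 to 12.7) and Arrb2 at 3.75 FPKM (2.83 to 4.67). Sag was 182 times Arrb1 (155 to 213) and 531 times Arrb2 (417 to 676), and Arr3 was 3.59 times Arrb1 (2.99 to 4.31) and 10.5 times Arrb2 (8.11 to 13.6). Sag therefore held 97.4% of the FPKM of the 4 arrestins and Arr3 1.92%.

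Set beside the kinase, the 2 visual arrestins lay on opposite sides of it. Sag was 11.9 times Grk1 (11.5 to 12.3), whereas Arr3 was 0.234 times Grk1 (0.213 to 0.258). As implied fragments, not divided by length, the ratios were 7.13 for Sag over Grk1 and 0.116 for Arr3 over Grk1, and Arr3 over Arrb2 was 6.86. Each lit receptor binds an arrestin molecule of its own, while the kinase acts as a catalyst, as general background.

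**Figure D2:**
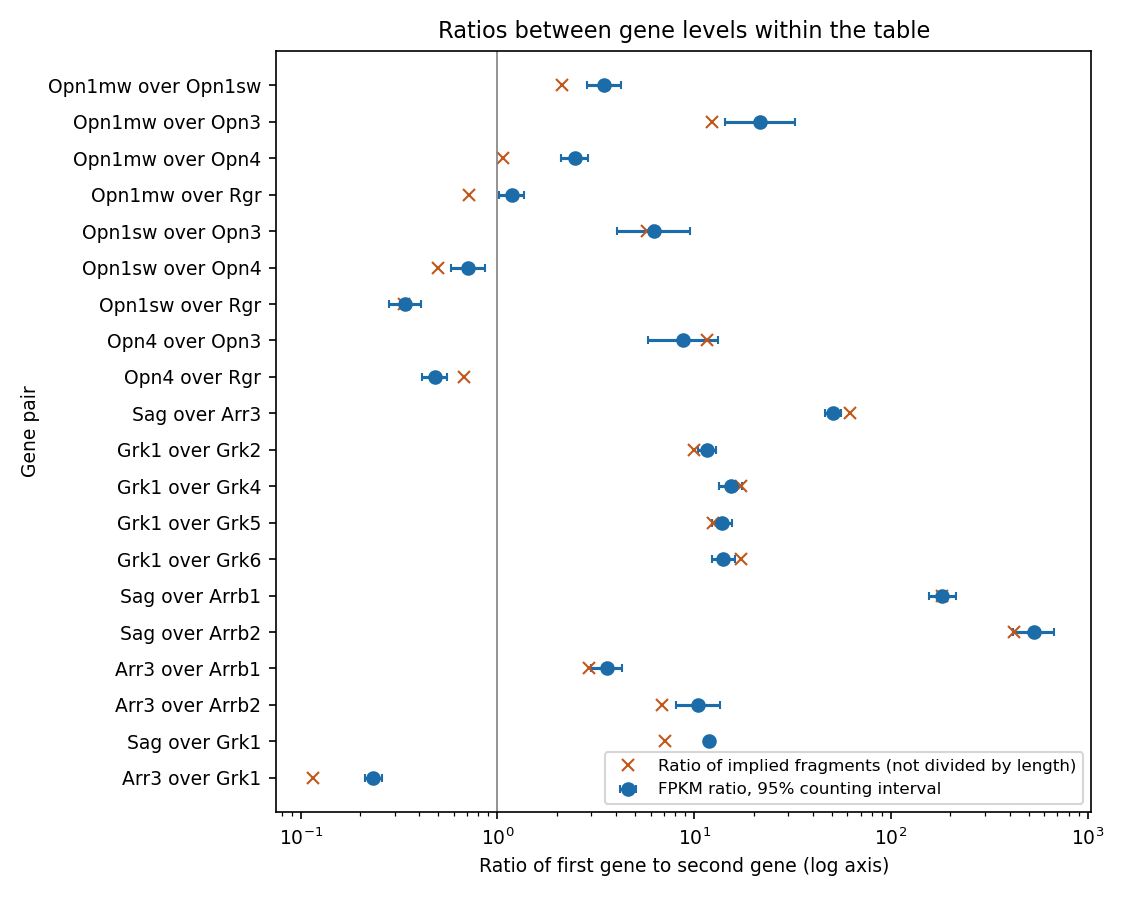
Ratio of the first gene to the second (log axis) for the 20 pairs, as FPKM with its 95% counting interval (points and bars) and as implied fragments (crosses); the grey line marks a ratio of 1. No FPKM interval holds 1, and the cross of Opn1mw over Rgr lies on the other side of the line.

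A list of 8 further genes, picked as partners in the shutoff of the light response, had a median of 124 FPKM. Not all of their proteins act on the receptor itself. All 8 reached 1 FPKM, as did 52.6% of all rows. Rcvrn, or recoverin, the calcium sensor that holds Grk1 inactive in the dark, was at 2372 FPKM (2338 to 2406), 14.1 times Grk1 (13.6 to 14.6), or 4.88 times by implied fragments. Pdc, or phosducin, which binds the beta and gamma subunits of transducin, was at 2485 FPKM (2457 to 2513). Rcvrn and Pdc thus stood near Sag, at ranks 7 and 6. Next came the complex that speeds GTP hydrolysis by transducin: Gnb5, as the sum of 2 rows, was at 469 FPKM (451 to 487), Rgs9 at 127 FPKM (122 to 131) and its membrane anchor Rgs9bp at 120 FPKM (112 to 129). The values of Rgs9 and Rgs9bp lay nearer to Grk1 than to Sag. Ppef2, a photoreceptor phosphatase related to the fly phosphatase rdgC, was at 77.4 FPKM (74.4 to 80.3), and its relative Ppef1 at 4.16 FPKM (3.35 to 4.96). Pdcl, a phosducin-like chaperone of G protein subunits, was at 21.9 FPKM (20.2 to 23.5). Protein phosphatase 2A, which removes phosphate from opsin, had its catalytic subunits Ppp2ca at 48.3 FPKM and Ppp2cb at 58.1 FPKM.

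The cone genes were set beside other genes of the same cells. Opn1mw was 0.486 times Gnat2, the cone transducin alpha subunit (0.427 to 0.553), or 0.323 by implied fragments. Arr3 was 0.674 times Gnat2 (0.603 to 0.753), or 0.479 by implied fragments. Opn1sw was 0.139 times Gnat2 (0.117 to 0.166), or 0.151 by implied fragments. Gnat2 itself was at 58.4 FPKM, and the 6 cone markers had a median of 29.7 FPKM. Arr3 and Opn1mw thus lay within the range of the cone markers. Opn1sw lay between Cngb3, a cone channel subunit, at 5.95 FPKM, and Pde6c, a cone phosphodiesterase subunit, at 12.2 FPKM. The range of these markers, 1.18 to 58.4 FPKM, is wide. It also holds Opn3, Opn4 and Rgr, so lying within it is not particular to cone genes. On the rod side, Sag was 0.315 times Gnat1, the rod transducin alpha subunit (0.311 to 0.319; 0.184 by implied fragments), and Grk1 was 0.0266 times Gnat1 (0.0258 to 0.0275). The ratios to Rcvrn, Gnat1, Gnat2 and the other markers were picked with the values already in view.

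**Figure D3:**
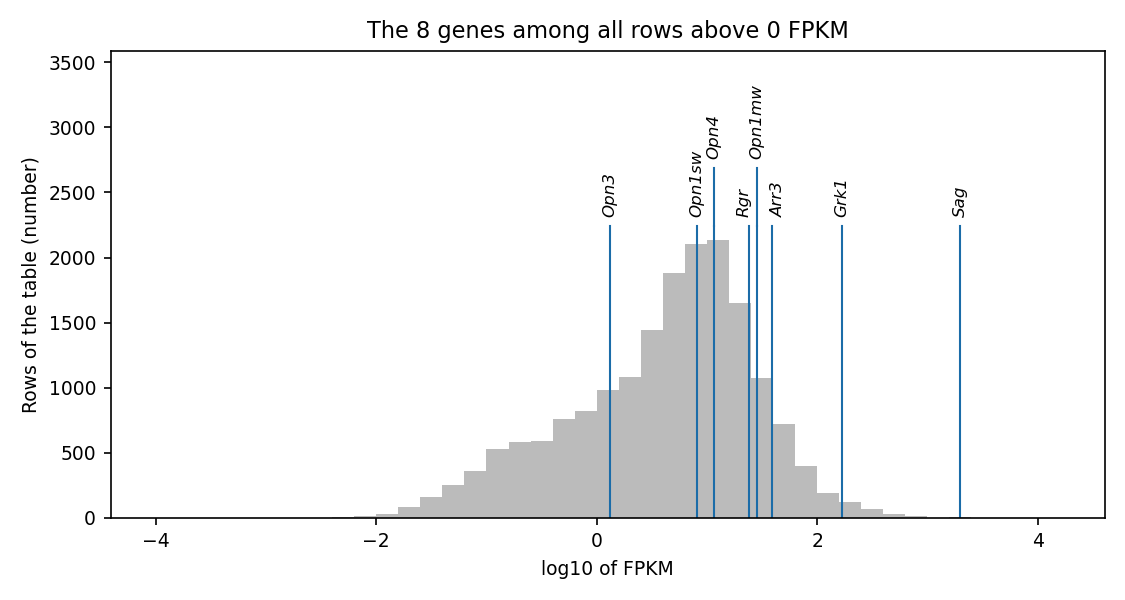
Number of rows by log10 of FPKM for all rows above 0, with a line at each of the 8 genes. Sag and Grk1 lie in the upper tail, at 1992 and 168 FPKM, whereas Opn3 at 1.31 FPKM lies below the median of these rows, 5.57 FPKM.

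Transcription factors that regulate photoreceptor opsin genes were looked up as a list of 7. The rod factors Nrl and Nr2e3 were at 633 FPKM (613 to 653) and 153 FPKM (144 to 161), and Crx, which acts in rods and cones, was at 192 FPKM (183 to 201). Otx2, which acts above Crx, was at 180 FPKM as the sum of 2 rows (173 to 186), and Rorb, which works with Crx on Opn1sw in mice, at 66.6 FPKM (62.4 to 70.8). Thrb, the thyroid hormone receptor needed for Opn1mw in mice, was at 13.6 FPKM (12.5 to 14.6). Rxrg, which holds down Opn1sw in mouse cones, was at 0.922 FPKM (0.509 to 1.33), the only one of the 7 below 1 FPKM.

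Opn4 was read beside the cells that hold it and the cascade it drives. Opn4 was at 11.5 FPKM, and was 6.39 times Eomes (4.18 to 9.77; 12.6 times by implied fragments), a transcription factor of photosensitive ganglion cells, at 1.80 FPKM. Of the other markers of these cells, Rasgrp1 was at 5.74 FPKM, Adcyap1, the gene of the peptide PACAP, at 2.16 FPKM, and Tbx20 was listed at 0. Opn4 was thus above every one of the 4 markers. In its cascade, the G protein subunits Gna11 and Gnaq were at 17.1 FPKM (14.6 to 19.6) and 16.1 FPKM (13.7 to 18.5), and the phospholipase Plcb4 at 14.9 FPKM (13.8 to 16.0). The third subunit, Gna14, was at 0.641 FPKM (0.354 to 0.928), and the channels Trpc7 and Trpc6 at 2.05 FPKM (1.57 to 2.53) and 1.53 FPKM (1.05 to 2.01). Many other cells express Gna11, Gnaq and Plcb4. The 6 markers of ganglion cells in general ranged from 2.73 FPKM for Pou4f2 to 144 FPKM for Sncg.

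Rgr was read beside its partners in retinal processing. Rgr was 1.16 times Rpe65, the isomerase of the pigment epithelium (1.02 to 1.32), which stood at 20.7 FPKM, but 0.883 times Rpe65 by implied fragments. Rgr was 0.210 times Rlbp1, the retinal-binding protein of pigment epithelium and Müller glia (0.190 to 0.232), which stood at 114 FPKM. By implied fragments Rgr was 0.141 times Rlbp1. The dehydrogenases Rdh10 and Rdh5, which oxidise retinol, were at 7.66 FPKM (5.96 to 9.36) and 5.35 FPKM (3.94 to 6.75), and Lrat, which esterifies retinol, at 3.94 FPKM (2.33 to 5.55). The tissue was taken as neural retina. Of 7 pigment epithelium markers, 6 reached 1 FPKM, beside 52.6% of all rows. The 7 markers ran from 0.270 FPKM for Best1 to 152 FPKM for Ttr, with a median of 5.35 FPKM. Most of their sum of 202 FPKM was Ttr alone. The 5 Müller glia markers ranged from 27.9 FPKM for Aqp4 to 617 FPKM for Glul. How much of the Rgr and Rrh signal came from either cell type was not tested.

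**Figure D4:**
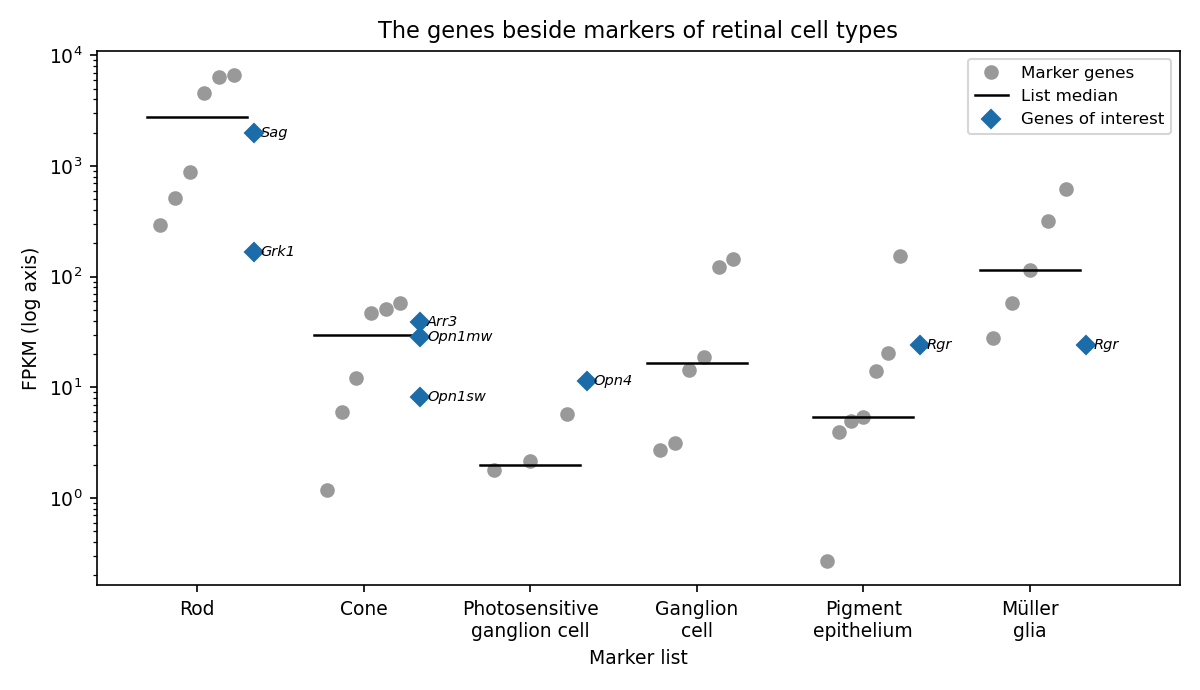
Level in FPKM (log axis) of each marker gene (grey), the median of its list (line) and the genes that those cells are known for, 7 of the 8 (diamonds), with Rgr drawn beside both pigment epithelium and Müller glia; genes listed at 0 count in a median but are not drawn, and Opn3 is not shown. Opn4 at 11.5 FPKM lies above all markers of photosensitive ganglion cells. Arr3, Opn1mw and Opn1sw lie within the wide range of the cone markers, as do Rgr, Opn4 and Opn3.

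The deposited half-width was 1.19% of the value for Sag, 3.18% for Grk1, between 9.37% and 11.8% for Arr3, Rgr, Opn1mw and Opn4, 16.7% for Opn1sw and 40.0% for Opn3. The implied fragment number lay within 0.02 of a whole number for 5 of the 8 genes, namely Opn1sw, Opn1mw, Opn3, Opn4 and Arr3. The same held for 69.6% of the 11492 rows whose implied number was at most 200, and of the 8 genes only Opn1sw and Opn3 fall in that range. For Rgr it lay 0.0249 away, and for Grk1 and Sag, whose numbers are far larger, 0.259 and 0.121 away. Fragments per FPKM, which grow with the length the authors' program used, ran from 10.8 for Opn1mw and 11.6 for Arr3 to 23.5 for Grk1 and 25.1 for Opn4.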

How the data were processed

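RNA of rat neural retina was sequenced from 6 samples after column extraction, with libraries made by the Ion Total RNA-seq kit, per the labels' protocols. The authors deposited 1 gene table of FPKM values with lower and upper bounds of each value in the same unit, in the format of Cufflinks, per the file headers. Version 2.0.8 of Cufflinks and genome build rn5 are named, per the submitters' processing notes. Aligner, annotation, confidence level and pooling: not given in the sources used here. All 8 genes have the status OK. With 1 value per gene, the planned group contrasts were not run.

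Ratios and their 95% intervals were computed with Python 3.11.15, numpy 2.4.6 and pandas 2.3.3, taking each bound as 2 standard errors. The fragment number implied by a value and its upper bound was computed for every row. Over the table these numbers sum to 6124332 fragments. The calculation was tested on simulated data whose bounds were built by the same rule. That test checks the arithmetic and cannot show that the deposited bounds follow the rule. Rows that share a symbol were summed. A minimum of 1 FPKM counted as reached. No pseudocount or filter was used. Genes and 14 further lists were chosen with earlier results of these data known. Every measured gene of a list could be named. The alternatives tried changed the match, the rows, the minimum and the length scaling.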

Additional observations from a re-analysis of the deposited data

How the results depend on the processing

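Exact symbols, the highest row per symbol and rows of status OK alone could not change any of the 20 ratios, since each gene in them has 1 row of that status. Slightly wider standard errors read from the bounds leave each ratio as it is. With implied fragments, which are not divided by length, 13 of the 20 lay outside their counting interval, 7 of these had moved by over 1.5 times and 1 turned round. The one that turned was Opn1mw over Rgr, at 0.714, where Opn1mw has 10.8 fragments per FPKM and Rgr 17.9. In the same setting Opn1mw over Opn1sw was 2.13, Sag over Arr3 was 61.7, Sag over Grk1 was 7.13 and Grk1 over Grk2 was 9.94. The share of the 8 genes in the summed FPKM, 0.664%, was 0.551% by implied fragments, 0.675% with the highest row per symbol and 0.718% without rows spanning under 300 bp. The count of genes at 1 FPKM was 8 of 8, 7 at a minimum of 5 FPKM, 7 by the lower bound and 8 at 0.1 FPKM. The share of all rows is given at 1 FPKM alone (52.6%), so the other counts have no background beside them. No paired analysis was possible because only 1 value per gene is given. The pseudocount, low-value filter, replicate block and left-out libraries set down for the group contrasts were not run for the same reason. Among the ratios picked with the values in view, Rgr over Rpe65 also turned, to 0.883. Depth limits Opn3 most, with an implied 25 fragments.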

Other observations

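Tex28, a gene known from testis, lies 433 bp from the edge of the Opn1mw row and was listed at 8.85 FPKM (7.18 to 10.5), against 0.0363 FPKM for Tktl1, the next row on that side. Whether the Tex28 value holds fragments of Opn1mw transcripts was not tested, since no strand or read is given. Opn3 and Opn1sw also have close neighbours: Kmo, 454 bp from Opn3, was listed at 0, and Calu, 724 bp from Opn1sw, was at 24.6 FPKM. None of the 8 rows overlaps another row.

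Of the 7 pigment epithelium markers, Ttr at 152 FPKM was above Rrh at 29.5 FPKM, and the next was Rpe65 at 20.7 FPKM, followed by Tyrp1 at 14.2 FPKM. By implied fragments, not divided by length, Rrh (330) was below Rpe65 (487) and Tyrp1 (434). These levels were noticed in the table and carry no test.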
